A study of Arabidopsis thaliana with 3 samples.

Results

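Levels of transcripts were compared between 90 and 45 min of light enriched in far-red, in whole 10-day-old wild-type (WT) seedlings of the Arabidopsis thaliana accession Col-0. The deposited table counts reads from PEAT, a paired-end method that sequences the 5′ ends of transcripts and so marks where transcription starts, for a selection of 6814 genes. Of these, 5412 had 100 or more reads in at least 1 of the far-red libraries and were the genes compared, and the other 1402 lay under that minimum. Each was represented by its transcript with the most reads, and its level was its reads per 1e+06 reads (RPM) of the total of these transcripts, which was 4373900 reads at 45 min and 4125024 at 90 min. A library from seedlings kept in white light (3440656 reads) is given beside them. Seedlings of all 3 conditions are labelled WT. There was 1 library per condition, so no difference below has a replicate check and no test between conditions was possible. Duration of far-red, time of harvest and library cannot be told apart.

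Far-red light reflected or passed by neighbouring leaves converts phytochrome, the red and far-red photoreceptor, to its inactive form. Phytochrome-interacting factors (PIFs) then accumulate and bind genes of the shade avoidance response, among them HD-ZIP II homeobox factors such as ATHB2 and enzymes of auxin synthesis such as YUC8. Auxin, gibberellin and brassinosteroid drive the elongation that follows, and atypical helix-loop-helix proteins such as HFR1, themselves made in response to shade, hold PIFs back. The comparison of the far-red times shows which transcripts were lower and which were higher in the later library.

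Of the 5412 genes, 346 were lower and 401 higher at 90 than at 45 min by 2-fold or more on the log2(RPM + 1) scale. These are 6.39% and 7.41% of the genes compared, or 13.8% together. The median log2 ratio was 0.04, with quartiles of -0.36 and 0.45, so the libraries as a whole were centred near each other. Among the 2743 genes with 500 or more far-red reads, 48 (1.75%) were lower and 65 (2.37%) higher, or 4.12% together. These percentages are of the selected genes in the table, not of the genome.

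**Figure D1:**
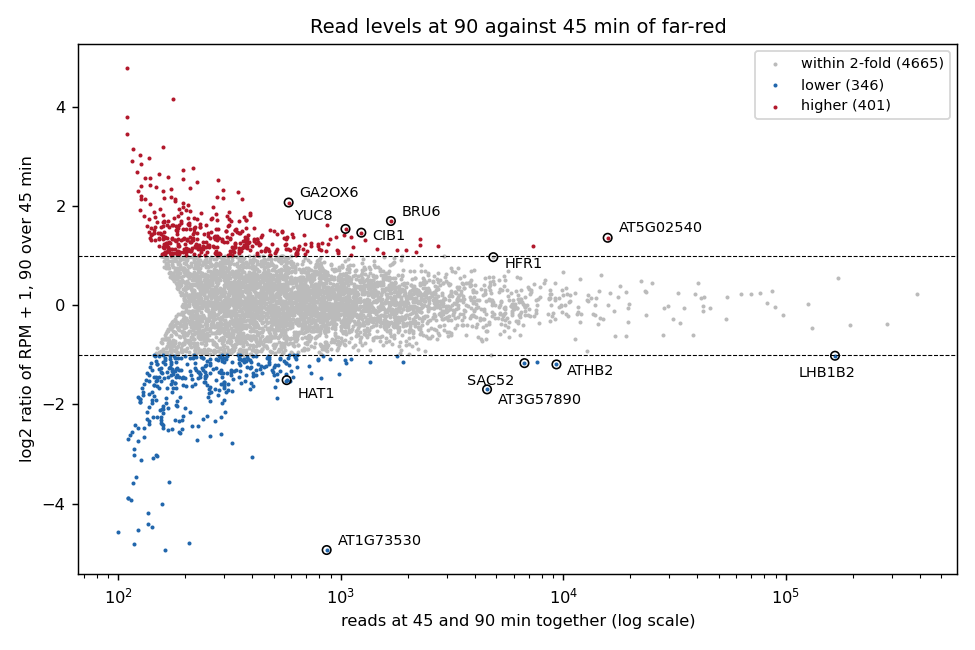
Each point is 1 of the 5412 genes, with its reads in both far-red libraries on the x axis (log scale) and its log2 ratio of RPM + 1 on the y axis. Dashed lines mark 2-fold, colours mark the 346 lower and 401 higher genes, circles mark genes named in the text, and the points spread most widely at few reads.

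The spread of the ratios differed with depth, in part through the minimum of reads. Below 200 far-red reads 53.6% of 530 genes lay past 2-fold, from 400 to under 1000 reads 7.26% of 1776 genes did, and from 1000 to under 2000 reads 2.20% of 818 genes did. A gene compared with under 200 far-red reads has 100 or more in 1 library and under 100 in the other. The minimum thus partly sets the 53.6%, which does not measure the effect of depth alone. Of the genes compared, 1091 reached 100 reads in only 1 of the far-red libraries (574 at 45 min and 517 at 90 min). They account for 261 of the 346 lower and 274 of the 401 higher genes, and a gene that enters through 1 library only is more likely to differ between them. At the minimum itself, the 23 genes whose higher far-red count was exactly 100 had log2 ratios from -4.58 to 1.91, and the 22 genes at 99, just outside, from -3.77 to 4.64. At the fold limit, the nearest ratios were -1.003 inside and -0.999 outside for the lower genes, and 1.003 and 0.999 for the higher genes.

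Genes with no read in 1 of the far-red libraries had some of the largest ratios. ERL1, a receptor-like kinase of stomatal patterning, had 0 reads at 45 min and 109 at 90 min, at least 38.5-fold higher against the limit of 3 reads that a count of 0 allows in the 45 min library. In the other direction emb1381 had 118 reads at 45 min and 0 at 90 min, at least 37.1-fold lower against the same limit at 90 min, and AT5G06770 went from 100 reads to 0, at least 31.4-fold lower. These 3 genes were picked after their values were seen, and they were the only genes compared with no read in a far-red library.

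Among the shade genes, the homeobox factors ATHB2 and HAT1 were lower at 90 min while the auxin synthesis gene YUC8 and the helix-loop-helix gene PIL2 were higher. Of the 20 listed shade regulators and targets, 7 were in the table and all 7 were compared. ATHB2 and HAT1 were lower past 2-fold, YUC8 and PIL2 higher, and PIL1, HFR1 and CKX5 lay within 2-fold. The list's median log2 ratio was 0.68, against 0.04 over all genes, and 4 of 7 (57.1%) lay past 2-fold against 13.8% of all genes.

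ATHB2 (AT4G16780), the HD-ZIP II factor whose microprotein the study concerns, stood at 93.6 RPM before far-red, 1509 RPM after 45 min and 659 RPM after 90 min. Its 90 min level was 2.29-fold below that at 45 min (95% counting interval 2.19 to 2.39), and still above that in white light. HAT1 (AT4G17460), another HD-ZIP II factor, stood at 34.3 RPM in white light, 98.5 RPM at 45 min and 33.9 RPM at 90 min, 2.90-fold lower at the later time (2.39 to 3.54). HAT1 thus stood at its white light level after 90 min, and ATHB2 did not. All intervals here are exact binomial intervals at 95% for the ratio of levels and cover counting error only, because reads amplified by polymerase chain reaction without molecular identifiers are not independent molecules.

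YUC8 (AT4G28720), a flavin monooxygenase of auxin synthesis, was read at 19.5 RPM in white light, 63.8 RPM at 45 min and 187 RPM at 90 min. Its level was 2.93-fold higher at 90 than at 45 min (2.55 to 3.37), and it was higher in each later library. HFR1 (AT1G02340), the atypical helix-loop-helix factor that binds PIFs, had 180 RPM, 390 RPM and 763 RPM in the same order. Its ratio of 1.96 (1.84 to 2.08) lay just inside the 2-fold limit, with a log2 ratio of 0.97. PIL1 (AT2G46970), a helix-loop-helix gene used as an early marker of shade, went from 4.07 RPM to 46.2 RPM and 74.4 RPM, a 90 to 45 min ratio of 1.61 (1.34 to 1.93). All 3 genes were highest in the 90 min library.

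CKX5 (AT1G75450), a cytokinin oxidase that breaks down cytokinin, had 2.91 RPM in white light and stood at 34.3 RPM and 33.2 RPM in the far-red libraries, a ratio of 0.968 (0.763 to 1.23). PIL2 (AT3G62090), a helix-loop-helix gene of the PIF family, had 38, 13 and 145 reads, or 11.04 RPM, 2.97 RPM and 35.2 RPM. Its 11.8-fold higher level at 90 min (6.70 to 22.7) starts from 13 reads, none of which lay in a start window. CKX5 overlaps 3 and PIL2 overlaps 2 other annotated genes, and the counting of strand is not given in the sources used here, so reads of overlapping genes may be mixed.

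**Figure D2:**
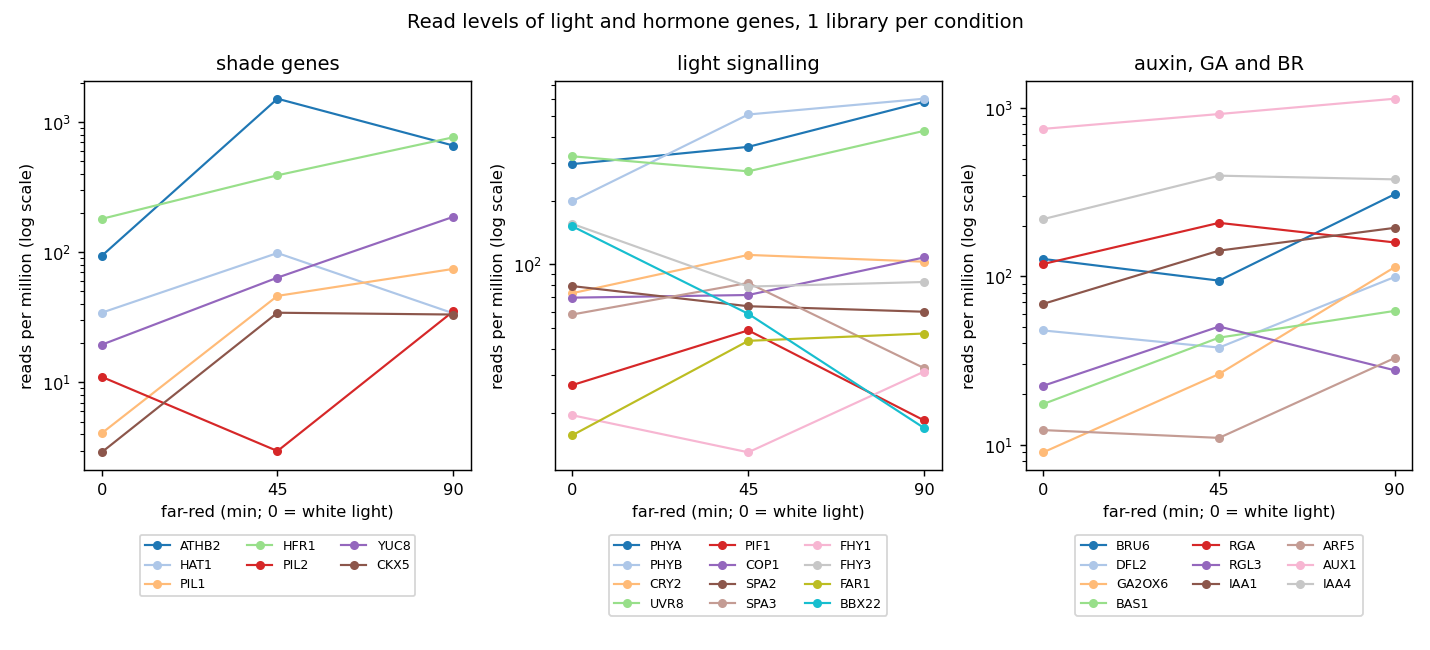
Read levels in RPM (log scale) in white light (0 min) and after 45 and 90 min of far-red, 1 library each, for the shade genes, the light signalling genes compared, and chosen auxin, gibberellin and brassinosteroid genes. ATHB2 and HAT1 are highest at 45 min, whereas HFR1, YUC8 and PIL1 are highest at 90 min.

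Light signalling genes moved in both directions. Of 36 listed photoreceptors and signalling components, 15 were in the table and 12 were compared, of which 3 were lower past 2-fold, 1 was higher and 8 were within, with a median log2 ratio of 0.09. The 4 past 2-fold are 33.3% of the 12, against 13.8% of all genes. All 4 had under 500 far-red reads, and of the 7 listed genes with 500 or more, 0 lay past 2-fold. BBX22, PIF1 and FHY1, described below, reached the minimum of 100 reads only in the far-red library where they were higher. The share therefore cannot be told apart from the wider spread of ratios at few reads. BBX22 (AT1G78600, listed as LZF1 in the reference), a B-box factor that promotes seedling de-etiolation, went down at each step, from 151 RPM in white light to 58.5 RPM and 17.0 RPM, and was 3.45-fold lower at 90 than at 45 min (2.64 to 4.56). The difference lay in its first window (162 and 5 reads), and its second had slightly more reads at 90 min (39 and 48). PIF1 (AT2G20180), a PIF of seed germination and greening, was read at 27.0 RPM, 48.9 RPM and 18.4 RPM, 2.66-fold lower at the later time (2.04 to 3.497). SPA3 (AT3G15354), a partner of the COP1 ubiquitin ligase, was read at 58.1 RPM, 81.8 RPM and 32.5 RPM, 2.52-fold lower (2.06 to 3.10), although its first start window had more reads at 90 min (66 against 36).

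The photoreceptor genes themselves stayed within 2-fold. PHYA, the phytochrome that senses far-red, was read at 297 RPM, 358 RPM and 584 RPM, with a 90 to 45 min ratio of 1.63 (1.53 to 1.74). PHYB, the main phytochrome of shade perception, had 199 RPM in white light, 509 RPM at 45 min and 604 RPM at 90 min, a ratio of 1.19 (1.12 to 1.26). FHY1 (AT2G37678), which carries phytochrome A into the nucleus, was higher past 2-fold, with 19.5 RPM, 13.0 RPM and 31.3 RPM and a ratio of 2.40 (1.74 to 3.34). PHYA, PHYB, FHY1 and the ultraviolet-B receptor UVR8 (275 RPM at 45 min and 426 RPM at 90 min) were all highest at 90 min.

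The circadian clock genes compared lay within 2-fold. Of 22 listed genes 12 were in the table and 10 were compared, of which 0 lay past 2-fold against 13.8% of all genes. Their log2 ratios ran from -0.69 to 0.56 with a median of 0.15. The morning factors CCA1 and LHY went opposite ways within that range, CCA1 from 87.1 RPM at 45 min to 72.5 RPM at 90 min and LHY from 68.4 RPM to 95.03 RPM. PRR7, a repressor of both, went from 408 RPM to 540 RPM. The listed clock genes left out by the minimum did differ past 2-fold. RVE8 had 97 reads at 45 min and 21 at 90 min, a log2 ratio of -1.93. ELF4 had 15 and 70 reads, a log2 ratio of 2.02.

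The hormone lists held few genes past 2-fold, 1 of 19 for auxin (5.26%) and 1 of 10 for brassinosteroid and gibberellin, neither share above the 13.8% of all genes. Of 46 auxin genes 21 were in the table and 19 were compared; 1 was higher past 2-fold, 0 were lower, and 14 of 19 had a positive log2 ratio with a median of 0.30, against 2873 of 5412 and 0.04 over all genes. The gene past 2-fold was ARF5 (AT1G19850), the auxin response factor of embryo and vascular patterning, with 12.2 RPM, 10.97 RPM and 32.7 RPM, and its first start window did not share the difference (21 and 18 reads). The early auxin-induced repressor IAA1 had 68.6 RPM, 142 RPM and 194 RPM, a 90 to 45 min ratio of 1.37 (1.23 to 1.52), and the auxin influx carrier AUX1 had 750 RPM, 919 RPM and 1133 RPM, a ratio of 1.23 (1.18 to 1.29).

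GH3 enzymes join auxin or jasmonate to amino acids, and several are themselves induced by auxin. This family was chosen after its values were seen. Of 6 GH3 genes compared, 2 were higher past 2-fold, against 7.41% of all genes, 0 were lower, and 5 had a positive log2 ratio, against 2873 of 5412. BRU6 (AT4G37390, also GH3.2) was read at 127 RPM in white light, 94.2 RPM at 45 min and 307 RPM at 90 min, 3.26-fold higher at the later time (2.92 to 3.66), with almost the same log2 ratio in both start windows (1.74 and 1.78). DFL2 (AT4G03400) was read at 47.7 RPM, 37.7 RPM and 99.2 RPM, a ratio of 2.63 (2.19 to 3.169). Neither was above its white light level at 45 min. GH3.17, at 112 RPM and 183 RPM, lay within 2-fold, and the jasmonate enzyme JAR1 had a log2 ratio of 0.15.

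Of 30 brassinosteroid and gibberellin genes, 15 were in the table and 10 were compared, with 1 higher past 2-fold, 0 lower and a median log2 ratio of 0.03. GA2OX6 (AT1G02400), which inactivates gibberellin, was read at 9.01 RPM in white light, 26.3 RPM at 45 min and 114 RPM at 90 min. Its level was 4.32-fold higher at 90 than at 45 min (3.51 to 5.34), the highest ratio of any gene with 500 or more far-red reads. BAS1, which inactivates brassinosteroid, had 17.4 RPM, 43.2 RPM and 62.3 RPM, a ratio of 1.44 (1.19 to 1.75). The DELLA repressors RGA and RGL3, on which gibberellin acts, were lower at 90 min within 2-fold, RGA at 208 RPM and 159 RPM and RGL3 at 50.3 RPM and 27.6 RPM.

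The 10 genes with the lowest and the 10 with the highest ratio were taken from genes with 500 or more far-red reads that share no counts with another gene. All 10 of the lowest were above white light at 45 min by any margin (NPSN12 by the least, at 139.7 RPM against 138.6 RPM), and 8 of them were below it at 90 min. Of the 10 highest, 10 were above white light at 90 min, 4 were already above it at 45 min and 6 were below it at 45 min. Both the 45 to white light and the 90 to 45 min ratio use the 45 min library.

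The lowest ratio belonged to AT1G73530, annotated as an RNA recognition motif protein. Its 3 libraries held 58, 842 and 22 reads, or 16.9 RPM, 193 RPM and 5.33 RPM, a 36.1-fold difference between the far-red times (23.7 to 57.9). Its second start windows held 726 reads at 45 min and 0 at 90 min, while the first went from 104 to 22 reads. AT3G57890, annotated as a tubulin binding cofactor C, was the deepest of the 10, with 184 RPM, 805 RPM and 248 RPM and a 3.25-fold lower level at 90 min (3.03 to 3.49). The difference lay in its first window (2919 and 457 reads), and the second held 326 and 293 reads.

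The other genes of the lowest 10 beside HAT1 have varied roles. PP2-B1 (AT2G02230), an F-box gene, went from 94.2 RPM at 45 min to 24.97 RPM at 90 min. IDD5 (AT2G02070), a zinc finger factor of starch metabolism, went from 89.2 RPM to 27.6 RPM, and MSL3 (AT1G58200), a mechanosensitive channel of the plastid envelope, from 102 RPM to 34.9 RPM. NPSN12 (AT1G48240), a membrane fusion SNARE, went from 140 RPM to 50.2 RPM and AGD7 (AT2G37550), a GTPase-activating protein of the Golgi, from 104 RPM to 37.6 RPM. AT5G27410, annotated with an aminotransferase domain, and AT1G73170, annotated as a ycf45 protein, had 97.9 RPM and 89.6 RPM at 45 min and 33.5 RPM and 30.8 RPM at 90 min. NPSN12, AGD7 and AT5G27410 overlap 1 other annotated gene each, and the second windows of AGD7 went the other way (27 and 46 reads).

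Among the highest 10, beside GA2OX6, BRU6 and YUC8, CIB1 (AT4G34530) was read at 45.6 RPM in white light, 78.2 RPM at 45 min and 217 RPM at 90 min. CIB1 is a helix-loop-helix factor that interacts with cryptochrome, and its 2.77-fold higher level at 90 min (2.45 to 3.15) was seen in both start windows (log2 ratios of 1.78 and 1.32). AT4G10790, a UBX domain gene, increased at each step, from 11.9 RPM to 50.3 RPM and 157 RPM. AT5G41920 (SCL23), a GRAS factor of the root and leaf endodermis and bundle sheath, had 57.0 RPM, 33.8 RPM and 96.7 RPM. PP2-B10 (AT2G02360), an F-box gene, was read at 38.4 RPM, 32.7 RPM and 90.4 RPM, and GAMMA CAL2 (AT3G48680), a carbonic anhydrase-like subunit of mitochondrial complex I, at 103 RPM, 44.1 RPM and 119 RPM. AT2G12462 stood at 42.4 RPM, 38.4 RPM and 105 RPM, and CPUORF47 (AT5G03190), which overlaps 2 annotated genes, at 66.0 RPM, 33.8 RPM and 95.8 RPM.

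**Figure D3:**
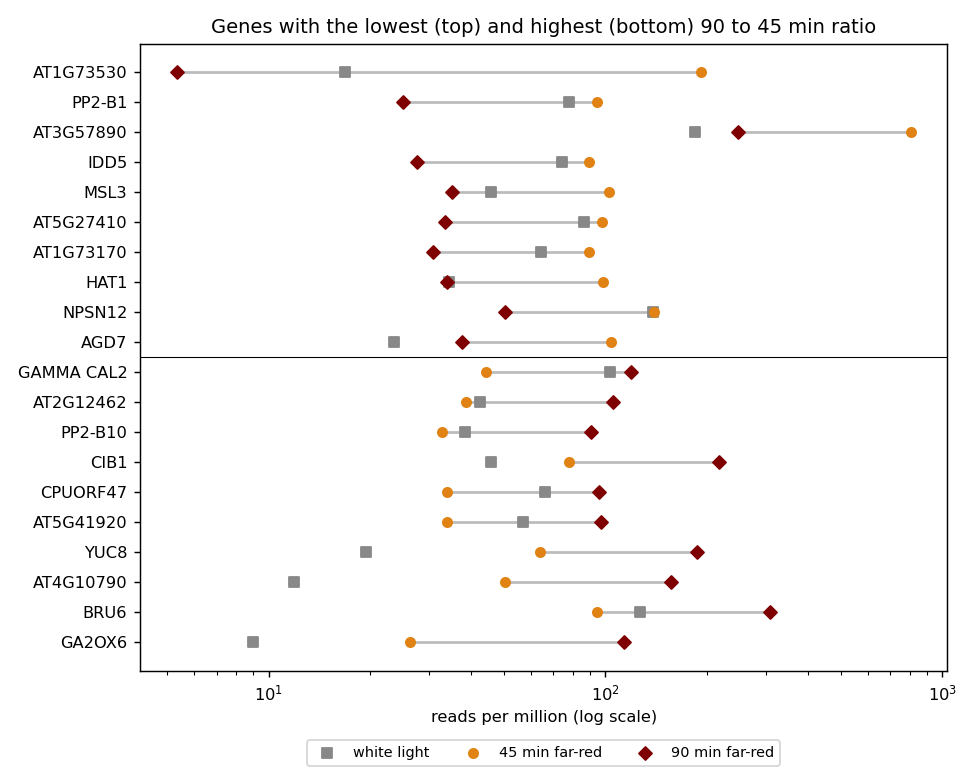
Levels in RPM (log scale) in each of the 3 libraries for the 10 genes with the lowest (upper part) and the 10 with the highest (lower part) ratio among genes with 500 or more far-red reads. Grey lines join the far-red values, and in 8 of the 10 upper genes the 90 min value lies left of white light.

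Ratios are best measured where reads are many. Of the 627 genes with 2000 or more far-red reads, 5 were lower and 6 were higher past 2-fold, against 6.39% and 7.41% of all genes. All 11 are named here after their values were seen. The lower ones were ATHB2, AT3G57890, SAC52, AT1G76520 and LHB1B2, and all 5 were above white light at 45 min. SAC52 (AT1G14320, ribosomal protein L10) was read at 541 RPM, 1078 RPM and 479 RPM, 2.25-fold lower at the later time (2.13 to 2.37). AT1G76520 (PILS3), a PIN-like protein of intracellular auxin transport, was read at 631 RPM, 1220 RPM and 553 RPM, 2.20-fold lower (2.099 to 2.32). In both genes the difference lay in the first window, and the second windows had log2 ratios of -0.11 for SAC52 and 0.44 for AT1G76520. At 90 min both were slightly below white light, with log2 ratios to white light of -0.17 for SAC52 and -0.19 for AT1G76520.

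The 6 higher genes were AT5G02540, CLH1, AT5G52050, SIRANBP, FKBP12 and ACS8, and all 6 were above white light at 90 min. AT5G02540, a short-chain dehydrogenase gene, was the deepest, with 269 RPM in white light, 1059 RPM at 45 min and 2716 RPM at 90 min, a 2.56-fold step between the far-red times (2.48 to 2.65). ACS8 (AT4G37770), a rate-limiting enzyme of ethylene synthesis, also increased at each step, from 35.5 RPM to 166 RPM and 351 RPM (ratio 2.11, 1.93 to 2.32). CLH1 (AT1G19670), a chlorophyllase that removes the phytol tail of chlorophyll, was read at 118 RPM, 153 RPM and 388 RPM. AT5G52050 (DTX50), an efflux carrier of the MATE family, SIRANBP, a Ran-binding protein of nuclear transport, and FKBP12, a peptidyl-prolyl isomerase, were lower at 45 min than in white light. AT5G52050 had 229 RPM, 163 RPM and 380 RPM, SIRANBP (AT1G07140) 313 RPM, 198 RPM and 456 RPM, and FKBP12 (AT5G64350) 1061 RPM, 528 RPM and 1205 RPM.

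Lower and higher genes were then counted over all 5412 by their 45 min level beside white light. Of 681 genes that were 2-fold or more above white light at 45 min, 95 (14.0%) were lower past 2-fold at 90 than at 45 min. A further 62 (9.10%) were higher and 524 were within. Of the 4363 genes within 2-fold of white light at 45 min, 240 (5.50%) were lower and 210 (4.81%) higher. Of the 368 genes 2-fold or more below white light at 45 min, 11 (2.99%) were lower still and 129 (35.1%) higher. Over all 5412 genes the shares were 6.39% lower and 7.41% higher. Restricted to 500 or more far-red reads, the first group held 175 genes, of which 10 (5.71%) were lower and 8 (4.57%) higher. The third held 83 genes, of which 0 were lower and 21 (25.3%) higher. Over all genes with that many reads the shares were 1.75% and 2.37%. The ratios behind these counts share the 45 min library, so the counts and shares are a description only.

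Of the 10 genes with most reads, 8 encode photosynthetic proteins, and 1 of these was lower past 2-fold. Of the 16 genes compared in the list of light harvesting and photosystems, which also holds Rubisco genes, 1 lay past 2-fold (6.25% against 13.8% of all genes), 9 had a negative and 7 a positive log2 ratio, with a median of -0.03. LHB1B2 (AT2G34420), a light-harvesting protein of photosystem II, was read at 13713 RPM in white light, 25981 RPM at 45 min and 12823 RPM at 90 min, 2.03-fold lower at the later time (2.01 to 2.05). It overlaps 2 other annotated genes and belongs to a family of near-identical copies, so the reads of single members are uncertain. LHCB3 went from 37906 RPM to 29272 RPM, PSBO1, the oxygen-evolving protein, from 25929 RPM to 19582 RPM and PSAF, a subunit of photosystem I, from 17777 RPM to 12966 RPM. LHCB2.3 went from 12244 RPM to 10669 RPM, and LHCB5 from 10658 RPM to 10396 RPM. Other members of the same list were higher at 90 min, LHCB4.1 at 7648 RPM and 8901 RPM, PSAO at 4234 RPM and 4950 RPM, and LHCA3 at 3514 RPM and 4188 RPM. All but LHB1B2 lay within 2-fold.

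RBCS3B and RBCS2B, small subunit genes of Rubisco, the carbon-fixing enzyme, were higher at 90 than at 45 min within 2-fold. RBCS3B was read at 44934 RPM in white light, 42385 RPM at 45 min and 49870 RPM at 90 min, and RBCS2B at 22579 RPM, 16545 RPM and 24275 RPM. The difference lay in the first windows (log2 ratios of 0.46 for RBCS3B and 0.96 for RBCS2B). Their second windows went the other way (-0.17 and -0.25). These copies are also near-identical. Of the other genes among the 10 with most reads, AT4G23670 (14721 RPM and 15006 RPM) and CP5 (9211 RPM and 11234 RPM) lay within 2-fold. All 12 genes of chlorophyll and haem synthesis compared lay within 2-fold, with a median log2 ratio of 0.12, from PORC, a protochlorophyllide reductase (142 RPM and 81.7 RPM), at the low end to CHLI2, a magnesium chelatase subunit (40.7 RPM and 71.3 RPM), at the high end. CHLH, the large subunit of the same enzyme, had 3998 RPM and 3300 RPM.

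Genes of darkness, stress and growth were also counted against the background of 13.8%. Of 14 dark and starvation genes and of 5 flavonoid and phenylpropanoid genes compared, 0 lay past 2-fold, with median log2 ratios of 0.09 and 0.02. Under the minimum, MYB111 of the flavonoid list had 92 reads at 45 min and 40 at 90 min (log2 ratio -1.04). UGT78D1 of the same list had 61 and 80 reads (0.45). In the touch, wound, cold and jasmonate list 1 of 10 was lower, namely TCH3 (AT2G41100), a calmodulin-like protein first found by touch, at 46.2 RPM, 41.8 RPM and 15.03 RPM, with 2 overlapping genes. MYC2, the jasmonate factor, had 159 RPM at 45 min and 101 RPM at 90 min, and the cold-regulated dehydrins COR47 and ERD10 went the other way, COR47 from 1828 RPM to 2406 RPM and ERD10 from 125 RPM to 213 RPM. These 3 lay within 2-fold.

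Cell wall genes held 1 member past 2-fold. Of 21 genes of xyloglucan modification, expansin, cellulose synthase and pectin methylesterase families compared, 14 had a negative log2 ratio, against 2539 of 5412 genes, the median was -0.32, and 1 was lower past 2-fold (4.76% against 6.39% of all genes). This was XTH33 (AT1G10550), a xyloglucan-modifying enzyme, with 32.6 RPM, 52.1 RPM and 17.2 RPM, and its first window had more reads at 90 min (10 and 30 reads) while its second had fewer (192 and 41 reads).

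Of 31 genes in the heat shock and chaperone list, DnaJ proteins included, 1 was lower and 2 were higher past 2-fold (9.68%), with a median log2 ratio of -0.11. HSFA5 (AT4G13980), a heat stress factor, had 33.7 RPM, 23.8 RPM and 3.64 RPM. ARG1 (AT1G68370), a DnaJ protein of gravity sensing, had 41.6 RPM, 42.1 RPM and 92.8 RPM, and AT5G54660 had 4.65 RPM, 9.15 RPM and 40.2 RPM. The higher pair was above white light at 90 min, and HSFA5 was below it.

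Of 84 ribosomal protein genes, some of organelles, 4 were lower and 4 higher past 2-fold (9.52%), with a median log2 ratio of 0.11. SAC52 and the S7 gene AT1G48830 (82.3 RPM at 45 min and 34.9 RPM at 90 min) were lower, and RPS10B (AT5G41520, 87.3 RPM and 177 RPM) and RFC3 (AT3G17170, a plastid-type S6 protein, 22.4 RPM and 67.4 RPM) were higher. Of 33 pentatricopeptide repeat genes, whose products process organelle RNA, 4 were lower and 2 higher (18.2%, against 13.8% of all genes). Each of these 4 lower and 2 higher genes reached the minimum of 100 reads only in the far-red library where it was higher. Among the 7 genes of this list with 500 or more far-red reads, 0 were lower and 0 higher. This share cannot be told apart from the wider spread of ratios at few reads. AT2G37230 went from 29.5 RPM to 6.06 RPM and AT5G27460 from 46.0 RPM to 14.1 RPM, while AT5G15010 went from 14.6 RPM to 33.5 RPM and EMB2217 (AT1G79490) from 12.1 RPM to 31.3 RPM.

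Of 156 protein kinase genes, 6 were lower and 14 higher past 2-fold (12.8%), with a median log2 ratio of 0.06. Of those past 2-fold, the 4 with the most reads were higher at 90 min, while kinase genes with more reads, such as SIP3 (1180 RPM and 1360 RPM), lay within 2-fold. CIPK26 (AT5G21326), a kinase activated by calcium sensors, was read at 242 RPM in white light, 66.8 RPM at 45 min and 179 RPM at 90 min, and ER (AT2G26330, ERECTA), a receptor kinase of organ growth and stomatal patterning, at 112 RPM, 53.0 RPM and 115 RPM. The receptor-like kinase AT4G04960 had 138 RPM, 87.6 RPM and 219 RPM, and AT5G03320 had 30.5 RPM, 20.3 RPM and 69.3 RPM. The second windows of CIPK26 went the other way (53 and 28 reads). For ER the first window held 32 and 34 reads, and the difference lay in the second windows (64 and 235 reads). In all 4 kinase genes the 45 min level was the lowest of the 3 libraries.

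**Figure D4:**
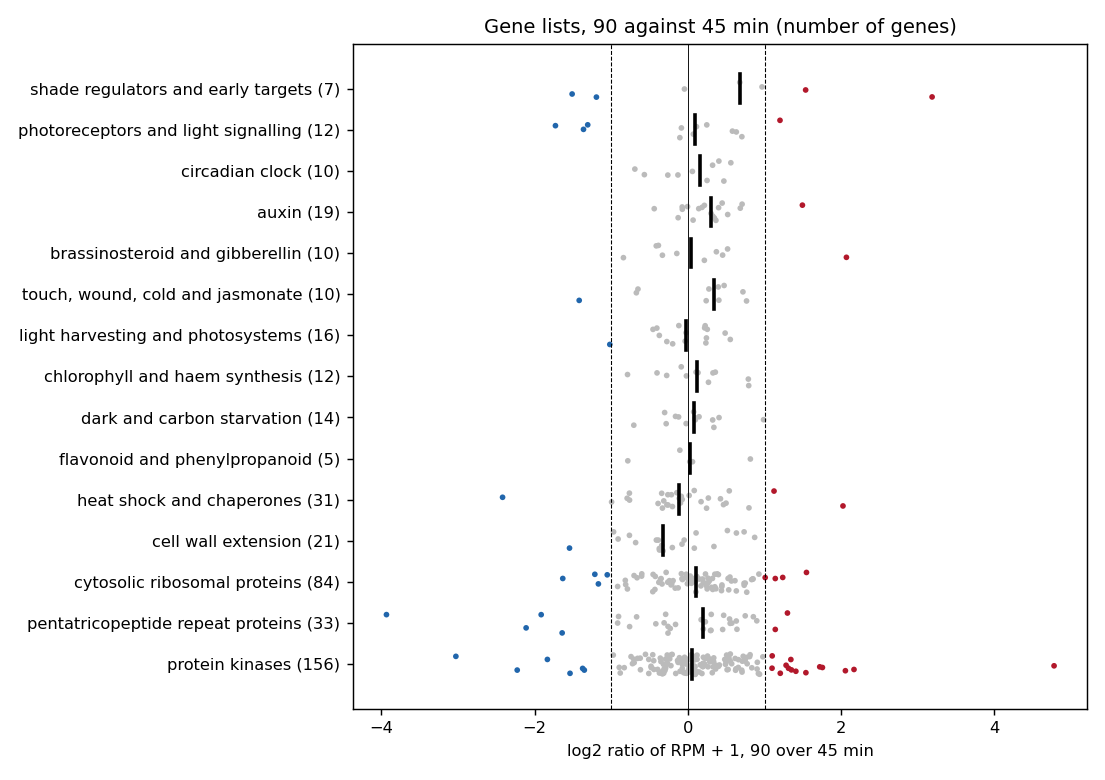
Log2 ratio of RPM + 1 at 90 over 45 min for each gene of the 15 lists that met the minimum of reads, with blue for lower and red for higher past 2-fold, black bars for medians and dashed lines at 2-fold. The number of genes stands beside each list, and the points of the clock, chlorophyll, starvation and flavonoid lists all lie between the dashed lines.

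Transcription factor families, chosen after values were seen, included genes past 2-fold on both sides. Of 28 helix-loop-helix genes 2 were lower and 5 higher, and 22 had a positive log2 ratio, with a median of 0.39. Over all 5412 genes 13.8% lay past 2-fold, 2873 had a positive log2 ratio and the median was 0.04, and the counts of the families below are read beside these. Beside PIF1, the lower gene was bHLH115 (77.0 RPM at 45 min and 34.2 RPM at 90 min), a factor of iron uptake. Beside PIL2 and CIB1, the higher genes were FBH4, AT3G61950 and AT2G41130. Of the far-red libraries, PIL2, FBH4, AT3G61950 and AT2G41130 reached the minimum of 100 reads only at 90 min, and PIF1 only at 45 min. CIB1 and bHLH115 reached it at both times. Of 17 homeobox genes 3 were lower (ATHB2, HAT1 and ATHB13) and 2 higher (BEL10 and ATH1), or 29.4% past 2-fold against 13.8%. ATHB13, an HD-ZIP I factor, had 37.2 RPM, 27.2 RPM and 4.61 RPM. ATH1, a factor that restrains stem growth, had 12.8 RPM, 7.32 RPM and 35.9 RPM. Of the far-red libraries, ATHB13 reached 100 reads only at 45 min (119 and 19 reads) and ATH1 only at 90 min (32 and 148 reads). ATHB2, HAT1 and BEL10 reached 100 reads at both times.

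Of 13 B-box and CCT genes 3 were lower and 1 higher, with a median log2 ratio of -0.25. The share past 2-fold was 30.8%, against 13.8% of all genes. It is a description only, because the family was chosen after its values were seen. BBX22, BBX13 and BBX17 also reached the minimum of 100 reads only in the far-red library where they were higher, and BBX14 reached it in both. The lower genes were BBX22, BBX14 (91.5 RPM at 45 min and 40.5 RPM at 90 min) and BBX13 (33.4 RPM and 15.5 RPM), and BBX17 was higher (20.6 RPM and 57.2 RPM). Of 6 GRAS genes, the DELLA family among them, AT5G41920 and SCL3 were higher past 2-fold (33.3% against 7.41% of all genes) and 0 were lower past 2-fold. The other 4 had negative log2 ratios within 2-fold, and the median of the 6 was -0.36. SCL3, which acts against DELLA proteins, had 121 RPM in white light, 27.9 RPM at 45 min and 69.3 RPM at 90 min. Of 74 genes picked by an F-box annotation 3 were lower and 10 higher (17.6% against 13.8% of all genes). Of the far-red libraries, the higher genes SKP2B, AT3G26920, FBS4, AT5G56420, PP2-A11 and AT5G22700 reached 100 reads only at 90 min. The lower genes AT5G22730 and AT2G29910 reached it only at 45 min. The other F-box genes past 2-fold reached it at both far-red times. Positive log2 ratios were seen in 48 of the 74, against 2873 of 5412 of all genes, with a median of 0.21. Of 43 MYB genes 2 were lower and 2 higher (9.30% against 13.8%), with a median of 0.02.

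The start windows of the table gave a view within each gene, although their reads are part of the levels compared. Among lower genes with 20 or more far-red reads in each window, 218 of 286 (76.2%) had lower levels in both the first and the second windows, 46 in the first only and 21 in the second only. Among higher genes, 314 of 360 (87.2%) were higher in both, and with 500 or more far-red reads 64 of 65 (98.5%) were, against 40 of 48 (83.3%) of the lower genes. Reads outside both windows made up 17.4% of the reads of the genes compared at 45 min and 16.8% at 90 min.

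Lower and higher genes resembled the rest in the length of the coding sequence. Its median was 1279.5 bases in lower, 1320 in higher and 1314 in genes within 2-fold. The share of genes with a single second window was 56.4%, 57.6% and 65.3%. The share that overlaps another annotated gene was 33.2%, 34.2% and 32.2%. The median depth differed more, with 233.5, 241 and 582 far-red reads, and the median white light level was 34.3 RPM, 25.6 RPM and 70.0 RPM.

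Markers of the tissues in a seedling were few in the table, and summed levels are given for both far-red times. Of 5 leaf mesophyll markers 1 was present (LHCB3), of 4 guard cell markers 2 (KAT1 and MYB60, summed level 254 RPM at 45 min and 236 RPM at 90 min) and of 10 root markers 2 (IRT1 and MYB36, 121 RPM and 164 RPM). Of 4 vascular markers 2 were present (APL, with 0 reads in white light, and XCP1, 107 RPM and 73.9 RPM), of 4 seed storage markers 2 (CRA1 and OLEO1, 84.4 RPM and 117 RPM) and of 3 shoot meristem markers 0. The markers compared all lay within 2-fold between the far-red times, and their part in the differences above was not tested. Whole seedlings mix cell types, and fewer cells of a type and less RNA per cell cannot be told apart.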

How the data were processed

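The deposited table, 14437 entries for 9617 transcripts, holds raw counts per library, per the file headers, for the whole transcript, for its first start window and for each further (second) window. The submitters' processing notes name FastQC, cutadapt, HISAT2 2.0.5, SAMtools 0.1.19 and bedtools 2.17.0 with the builds TAIR9 and TAIR10, without their roles. Window width, strand, duplicate removal and the selection of entries are not given in the sources used here. The table totals are therefore not library depths.

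From these counts RPM, log2 ratios with a pseudocount of 1 RPM (which understates changes of genes with few reads) and Clopper-Pearson intervals of the ratio were computed with Python 3.11.15, pandas 2.3.3 and scipy 1.17.1, and tested on simulated data. No count model was used, since each group has 1 library. Names came from RefSeq TAIR10.1 (5403 of 5412 matched), and families from the deposited annotation. The named genes were ATHB2, up to 4 genes past 2-fold with most reads per list, the 10 lowest and 10 highest ratios with 500 or more far-red reads, and the 10 genes with most reads. Other genes were named after their values were seen. Members and lists were chosen with earlier results of these data known. Planned promoter motifs were not analysed here.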

Additional observations from a re-analysis of the deposited data

How the results depend on the processing

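The number of genes past 2-fold depended on the minimum of reads, on the fold and on the reads counted. With 346 lower and 401 higher genes as reported, a minimum of 50 reads gave 541 lower, no minimum 571 lower, a minimum of 500 reads 20 lower and 33 higher, and a mean of 100 reads over both far-red libraries 200 lower and 263 higher. First-window reads alone gave 845 lower and 819 higher, and reads of both windows alone gave 629 higher. At 1.5-fold 877 were lower and 1007 higher, and at 4-fold 74 and 43. The median log2 ratio was -4.83e-05 with median-of-ratios scaling, 0.0098 without the 10 genes with most reads in the total, 0.021 with a minimum of 500 reads and 0.091 with reads of both windows. Of the genes above white light at 45 min, 95 were lower and 62 higher at 90 min as reported, against 5 and 4 with a minimum of 500 reads, 50 and 32 with a mean of 100 reads and 297 and 165 with first-window reads, and 35 were higher with a pseudocount of 5 RPM. The share of genes past 2-fold that went the same way in both windows was 82.4%, against 85.6% with a pseudocount of 5 RPM and 88.7% with a minimum of 500 reads. Of the list medians, 3 moved, namely those of ribosomal protein genes (-0.026) and protein kinases (0.23) with first-window reads and auxin genes (0.47) with reads of both windows. Of 45 named genes past 2-fold, 42 kept their direction in every alternative run and 28 also stayed past 2-fold. With first-window reads the log2 ratio turned to 0.94 for SPA3, -0.10 for ARF5 and 1.499 for XTH33. The cause was not tested. ATHB2 lay between -1.23 and -0.88, the latter with first-window reads, and GA2OX6 between 1.92 and 2.23. No paired analysis was possible because the conditions hold 1 library each, and no replicate was left out for that reason. Depth limits what can be seen for genes with few reads. Of those under 200 far-red reads 53.6% lay past 2-fold, a share partly set by the minimum of 100 reads in 1 library.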
